A study of Mus musculus with 72 samples.

Results

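The embryonic globin genes of the mouse, Hbb-y, Hbb-bh1 and Hba-x, were followed in whole brain and whole liver of 3 inbred strains at 4 stages. Their members were all probe sets with a single gene symbol equal to 1 of the 3 names, which gave 7 of the 45101 probe sets of the array. Hbb-y had 3 of them (1436717_x_at, 1436823_x_at and 1450621_a_at), Hbb-bh1 had 3 (1437810_a_at, 1437990_x_at and 1450736_a_at) and Hba-x had 1 (1448716_at). The mice were males of DBA/2J (D2), 129S2 and C57BL/6J (B6), taken at the embryonic stage E14.5, on days 1 and 7 after birth (P1, P7) and as adults of 11 to 14 weeks (P90). B6 and D2 came from The Jackson Laboratory and 129S2 from a French breeder, the adults being the purchased animals and the younger mice their offspring. The labels name no added allele and no treatment. With 3 Affymetrix arrays a group, the 24 groups made 72 arrays. Whole organs were hybridised, so each value averages all cells of the organ and the blood left in its vessels.

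Haemoglobin is built from alpha-type and beta-type globin chains, and the embryo makes its own versions of both. Hba-x encodes zeta globin, the embryonic alpha-type chain, while Hbb-y (epsilon y) and Hbb-bh1 (beta h1) encode embryonic beta-type chains. In the mouse they are known from primitive red cells, which arise in the yolk sac and circulate with their nuclei at first. Primitive cells are later outnumbered by definitive red cells from the fetal liver, which carry adult chains. In the reference genome the genes of the adult chains are Hba-a1, Hba-a2, Hbb-bs and Hbb-bt. Bcl11a and Sox6 encode repressors of the embryonic beta-type genes in definitive red cells, and Klf1 encodes an erythroid activator that binds CACCC boxes.

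In GRCm38.p6, Hbb-y lies at chr7:103851754-103853207 and Hbb-bh1 at chr7:103841638-103843162, in the cluster that also holds Hbb-bs and Hbb-bt. Hba-x lies at chr11:32276600-32278116, in the cluster of Hba-a1 and Hba-a2. The 250 bases before the start are shown for Hbb-y (chr7:103853208-103853457, minus strand), and for the alpha-type gene, Hba-x (chr11:32276350-32276599, plus strand). Hbb-bh1 also differed between strains at E14.5, but the promoter sequences used here held none for it. These are reference sequences, so they do not show how the strains differ. Capitals mark matches on either strand to the CACCC box, the CCAAT box, the GATAA motif of Gata factors, the TGACC motif and the TATAAA box. The sequences are those of RefSeq.
Hbb-y promoter: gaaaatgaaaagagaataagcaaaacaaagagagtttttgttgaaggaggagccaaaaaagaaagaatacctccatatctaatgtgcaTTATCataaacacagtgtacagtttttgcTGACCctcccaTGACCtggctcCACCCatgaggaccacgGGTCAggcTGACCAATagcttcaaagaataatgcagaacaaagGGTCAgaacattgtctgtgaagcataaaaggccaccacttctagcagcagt
Hba-x promoter: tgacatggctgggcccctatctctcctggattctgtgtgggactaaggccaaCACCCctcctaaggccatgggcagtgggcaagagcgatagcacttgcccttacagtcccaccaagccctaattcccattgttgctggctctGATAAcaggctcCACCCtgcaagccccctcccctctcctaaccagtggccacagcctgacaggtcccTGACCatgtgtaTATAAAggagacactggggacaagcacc
The Hbb-y window held 8 matches. It had 1 CACCC, 1 CCAAT, 1 GATAA on the other strand, and 5 TGACC, of which 1 overlapped the CCAAT. The nuclear receptors Nr2c1 and Nr2c2 are known to bind repeats of TGACC-like motifs in embryonic beta-type globin promoters. The Hba-x window held 5 matches, with 2 CACCC, 1 GATAA, 1 TGACC and 1 TATAAA but no CCAAT. Such short motifs are common, and of 32851 promoters of the same length 52.0% held CACCC, 33.8% CCAAT, 22.6% GATAA, 35.2% TGACC and 12.4% TATAAA.

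All 7 probe sets fell at least 2-fold between E14.5 and P1 in both tissues and every strain. Up to P7 little followed, apart from a tail on 2 of the 3 Hbb-y probe sets in the newborn liver. Sizes between stages are differences of log2 signal after quantile normalization of the 36 arrays of a tissue, because the deposited values had been normalized apart in each tissue and stage. They carry no test for that reason, and a decline was counted where the difference was at least 2-fold in each of the 3 strains. In brain the mean difference of the 3 strains between P1 and E14.5 was -9.99 ± 0.32 for Hbb-y 1436717_x_at (SD over strains, n = 3 strains), a 1020-fold lower signal. It was -10.25 ± 0.39 for 1436823_x_at and -7.97 ± 0.51 for 1450621_a_at. All 3 Hbb-y probe sets therefore gave a drop of more than 2 orders of magnitude. Each probe set has its own lowest signal, which limits how far it can drop, so sizes are not ranked between genes. Hba-x fell by 4.18 ± 0.98 in brain, with D2 at -4.88, 129S2 at -4.61 and B6 at -3.05. Hbb-bh1 fell by 3.08 ± 1.42, 4.46 ± 1.57 and 3.91 ± 1.59 on its 3 probe sets. In B6 the Hbb-bh1 drop was the smallest of the strains, at -1.45, -2.65 and -2.08, where its signal already stood lower at E14.5. The decline was thus met by 7 of 7 members in brain, where 2.56% of all probe sets met it. In such bulk samples fewer cells of a type and less RNA per cell cannot be told apart.

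In liver 7 of 7 members met the same criterion between P1 and E14.5, against 3.70% of all probe sets. Hbb-y fell by 7.94, 8.31 and 7.51 on the log2 scale, Hbb-bh1 by 5.60, 6.95 and 6.22, and Hba-x by 5.41 ± 0.93. The Hba-x drop was again ordered D2, 129S2 and B6, at -6.33, -5.41 and -4.47. Red cell genes were lower in liver over the same step. Of 21 measured genes of the red cell membrane and of haem synthesis, 11 fell at least 2-fold in each strain in liver, with a list median of -1.46 beside -0.04 for all probe sets, and 3 fell in brain, with a median of -0.47. In liver these were the blood group and membrane genes Kel (-2.64), Epb42 (-2.45), Rhd, Rhag, Ermap and Ank1, with Trim10 (-2.31), Slc25a37, Epor, Cldn13 and Tspo2. In brain they were Slc4a1, the anion exchanger of the red cell membrane (-2.14), Slc25a37 (-2.00) and Alas2, the first enzyme of haem synthesis in red cells (-1.66). The 8 probe sets of adult globin genes, of which 4 are annotated to more than 1 gene, ranged from -1.67 to 1.10 between P1 and E14.5 in liver. Both ends were Hbb-b2, with 1427866_x_at at least 2-fold lower in each strain and 1427865_at at least 2-fold higher in each (1.10 ± 0.06), so probe sets of this gene disagreed. In brain the 8 ranged from -2.24 to 0.26, and 2 of them met the decline criterion. Of 21 regulators of globin genes, 9 fell in liver and 1 in brain. In liver Klf1 averaged -2.29 ± 0.48, the erythroid factors Gata1 -1.99 ± 0.55 and Tal1 -1.95 ± 0.67, Bcl11a -1.75 ± 0.17 and Lin28b, which encodes a fetal RNA-binding protein, -1.52 ± 0.09 (SD over strains), and the others were Nfe2, E2f4, Lyl1 and Zfpm1. In brain the regulator that fell was Tal1, at -2.78 ± 0.62.

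**Figure D1:**
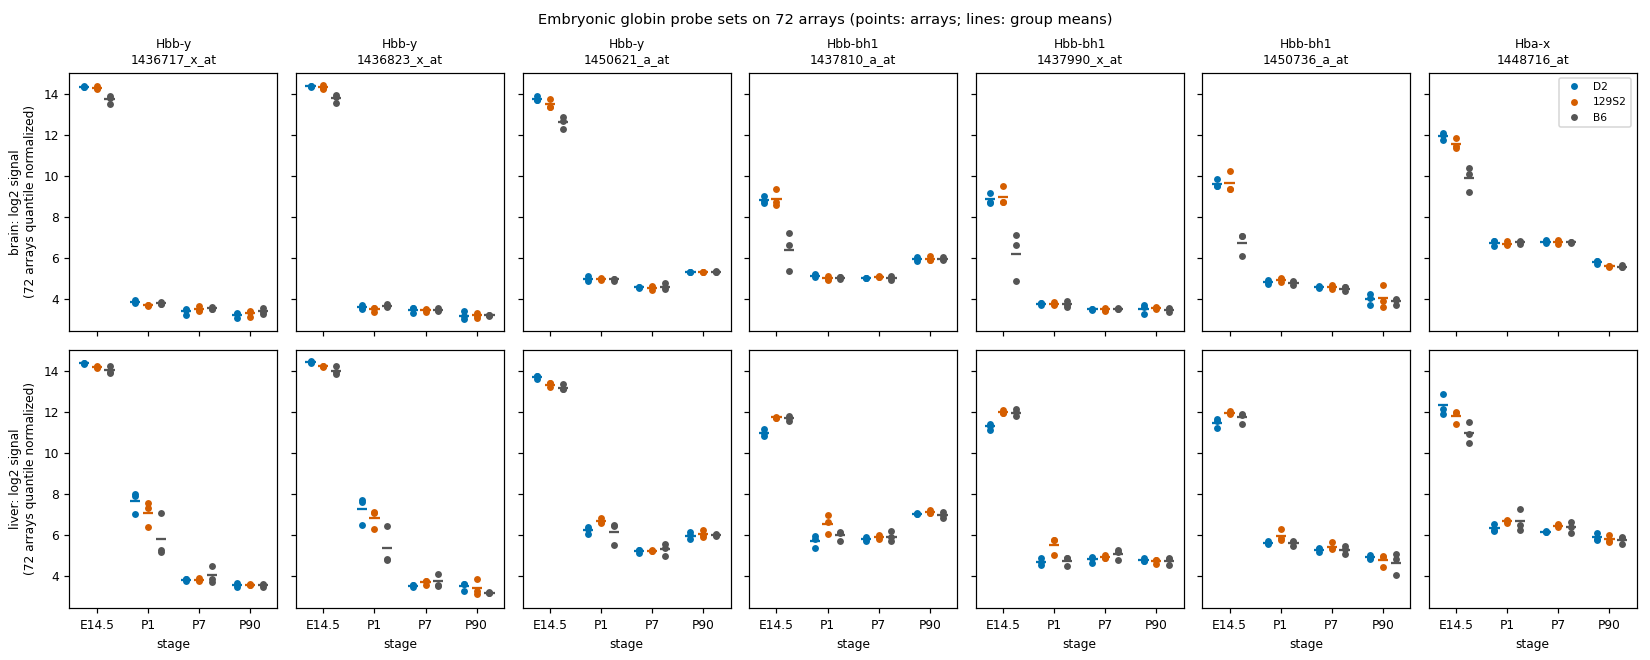
Log2 signal (y axis, quantile normalized over 72 arrays) of the 7 embryonic globin probe sets by stage (x axis) in brain (upper row) and liver (lower row), with a point for each array and a line for each group mean, in D2, 129S2 and B6 from left to right. Each probe set is lower at P1 than at E14.5 in each strain and tissue, though Hbb-bh1 1437810_a_at in E14.5 B6 brain averages only 6.39. Hbb-y 1436717_x_at lies at 3.66 to 3.95 on P1 brain arrays and at 13.51 to 14.41 on E14.5 brain arrays.

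**Figure D2:**
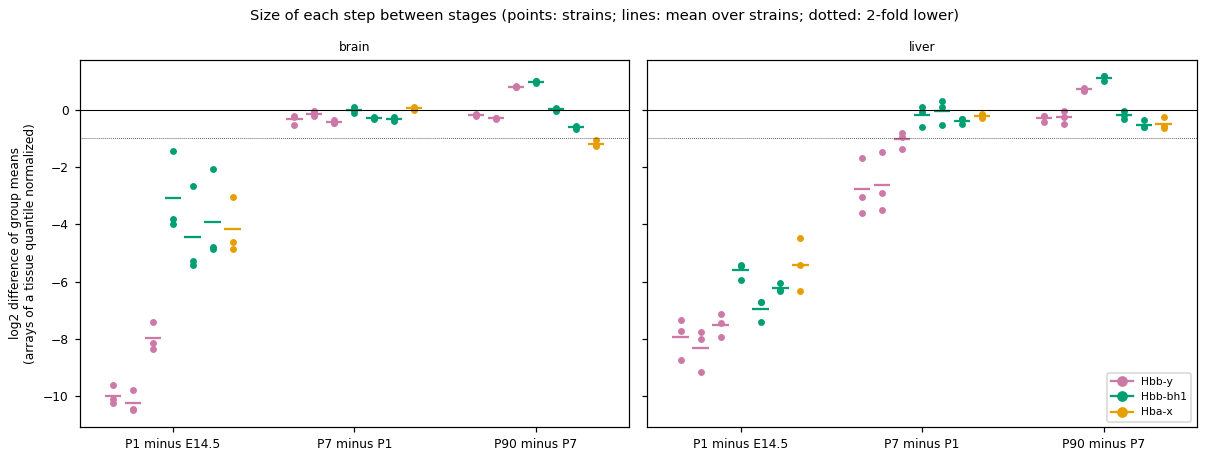
Size of each step between neighbouring stages (y axis, log2 difference of group means) for the 7 probe sets in brain and liver, with a point for each strain and a line for the mean of strains. The first step is below the dotted 2-fold line throughout, and the second step is so in all strains for 2 Hbb-y probe sets in liver only.

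Over 27 brain arrays of P1, P7 and P90 the deposited log2 signal ran between 3.17 and 4.29 for Hbb-y 1436717_x_at, between 5.41 and 5.83 for Hbb-bh1 1437810_a_at and between 5.07 and 7.49 for Hba-x, the stages having been normalized apart. After quantile normalization of all 72 arrays these brain ranges were 5.53 to 6.89 for Hba-x and 4.91 to 6.10 for Hbb-bh1 1437810_a_at. The files give no detection calls, so signals this low may be at the floor of their probe sets and the sizes above may understate the true drop. Between P7 and P1 no member met the decline criterion in brain, with differences from -0.43 to 0.05, where 0.278% of all probe sets did. In liver 2 members did, against 0.497% of all, and both were Hbb-y. Hbb-y 1436717_x_at averaged -2.78 ± 1.00, with D2 at -3.61, 129S2 at -3.06 and B6 at -1.67, and 1436823_x_at averaged -2.64 ± 1.04. Without B6 replicate 1 of P1 liver, 1 of them met it. The third Hbb-y probe set, 1450621_a_at, fell less, at -1.04 ± 0.29, and in D2 and B6 stayed within 2-fold.

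The later steps depended on how arrays were scaled. Between P90 and P7, 1 member met the criterion in brain (7.61% of all) and 0 in liver (7.41% of all). The member in brain was Hba-x, at -1.19 ± 0.12. With the values as deposited the counts were 2 in brain and 3 in liver, and with each array centred on bacterial spike-in transcripts they were 7 and 7. The median of all probe sets then shifted by -0.76 and -2.24 in brain and by -1.01 and -2.98 in liver, so no direction is given for the other members over this step. Set against E14.5, adult brain was at least 2-fold lower for 6 of 7 members (12.1% of all) and adult liver for 7 of 7 (13.1% of all). The exception was Hbb-bh1 1437810_a_at, whose difference in brain was -0.47 in B6 but -2.93 in D2 and -2.98 in 129S2. For Hbb-y 1436717_x_at the difference between P90 and E14.5 was -10.51 in brain and -11.01 in liver.

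Between strains the members separated most in E14.5 brain, where B6 was low. There D2 and 129S2 stood above B6 in all 7 probe sets with no overlap between arrays. The excess reached 7.06-fold for Hbb-bh1, 3.33-fold for Hba-x and 2.06-fold for Hbb-y. The share of all probe sets without overlap was not counted, so overlap is given here and below as a description only. Strains were compared within a tissue and stage with limma on the deposited log2 values, over 9 arrays and all 45037 probe sets that are not array controls. To be called, a difference needed 1.5-fold and a p below 0.05 after Benjamini-Hochberg adjustment. The labels do not say that the arrays of a group came from separate litters or animals, so these p-values measure the spread between arrays, which may be partly technical.

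Hbb-bh1 1450736_a_at had log2 signals of 10.38, 10.16 and 10.10 in D2 brains and of 10.00, 10.00 and 10.72 in 129S2 brains, against 7.71, 7.77 and 6.78 in B6 brains. The gap of more than 2 units between the lowest D2 or 129S2 array and the highest B6 array was wider than the spread of any strain. The difference was 2.79 ± 0.28 for D2 minus B6 (SE, 95% interval 2.15 to 3.43), a 6.93-fold excess with an adjusted p of 0.0012 in limma, n = 3 arrays each. It was 2.82 ± 0.28 for 129S2 minus B6 (7.06-fold, limma adjusted p = 0.0014). Both calls stood when each of the 9 arrays was left out in turn, with differences of 2.47 to 2.97 and of 2.50 to 3.0.

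The other Hbb-bh1 probe sets ran the same way with more spread among B6 arrays. On 1437810_a_at the signals were 9.65, 9.39 and 9.39 in D2 and 9.39, 9.30 and 9.92 in 129S2, against 7.27, 7.88 and 6.01 in B6. On 1437990_x_at they were 9.75, 9.40 and 9.36 in D2 and 9.39, 9.43 and 10.05 in 129S2, against 7.30, 7.81 and 5.43 in B6. The third B6 array was the lowest on each Hbb-bh1 probe set, and D2 and 129S2 overlapped on all of them. D2 exceeded B6 by 2.42 ± 0.40 and 2.66 ± 0.52 (limma adjusted p = 0.018 and 0.037), and 129S2 exceeded B6 by 2.48 ± 0.40 and 2.78 ± 0.52 (limma adjusted p = 0.02 and 0.039). These 4 calls were lost in 3 to 7 of the 9 fits that left out 1 array, among them every fit without a D2 array for D2 minus B6 and every fit without a 129S2 array for 129S2 minus B6. The differences were between 2.29 and 3.01 in the fits that lost the call.

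Hba-x measured 12.30, 12.05 and 12.21 in D2 brains and 11.82, 11.75 and 12.10 in 129S2 brains, against 10.87, 10.64 and 9.84 in B6 brains. All 6 D2 and 129S2 arrays lay above all 3 B6 arrays. D2 exceeded B6 by 1.74 ± 0.24 (95% interval 1.20 to 2.27), which is 3.33-fold, with a limma adjusted p of 0.0067. The excess of 129S2 was 1.44 ± 0.24, or 2.71-fold (limma adjusted p = 0.022), and this call was lost without any 1 of the 129S2 arrays, without D2 replicate 2 and without D2 replicate 3, with an adjusted p of up to 0.081.

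Hbb-y was near the top of the array's scale. In E14.5 samples 1436717_x_at and 1436823_x_at lay 0.28 to 1.13 below the brightest probe set of their array, where signals may be compressed, so the smaller strain differences of Hbb-y are not comparable in size with those of the other genes. Hbb-y 1436717_x_at had 14.33, 14.31 and 14.31 in D2 and 14.20, 14.18 and 14.42 in 129S2, against 13.93, 13.86 and 13.49 in B6. Hbb-y 1436823_x_at had 14.35, 14.32 and 14.34 in D2 and 14.22, 14.21 and 14.42 in 129S2, against 13.96, 13.89 and 13.55 in B6. B6 was again lowest without overlap, but the differences of 0.55 ± 0.12 and 0.54 ± 0.11 for D2 missed the threshold (limma adjusted p = 0.059 and 0.052). The dimmer probe set 1450621_a_at had 13.84, 13.80 and 13.93 in D2 and 13.52, 13.51 and 13.83 in 129S2, against 13.08, 12.90 and 12.46 in B6. Its differences were 1.04 ± 0.16 for D2 minus B6 (2.06-fold, limma adjusted p = 0.012) and 0.81 ± 0.16 for 129S2 minus B6 (limma adjusted p = 0.049). The D2 call was lost without D2 replicate 3 (adjusted p = 0.067), and the 129S2 call was lost in 8 of 9 such fits, all but that without B6 replicate 1.

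In total 5 of 7 members were called higher in D2 than in B6 in E14.5 brain, where 1.84% of all probe sets were called. Likewise 5 of 7 were called higher in 129S2 than in B6, beside 1.23% of all, and 0 of 7 differed between 129S2 and D2, beside 1.11% of all. The 129S2 minus D2 differences ran from -0.30 to 0.12, and none had an unadjusted p below 0.05.

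**Figure D3:**
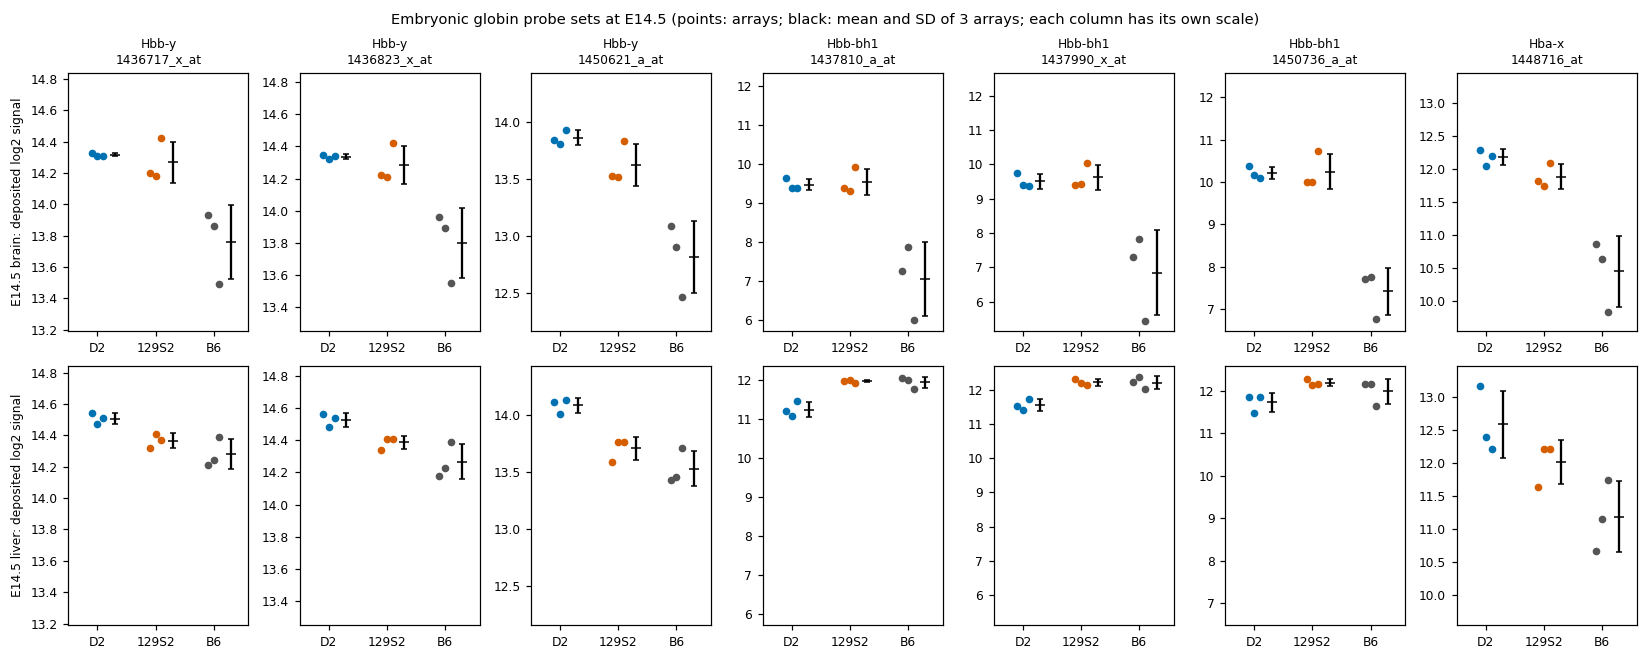
Deposited log2 signal (y axis) of each member on the E14.5 arrays of brain (upper row) and liver (lower row), with points for D2, 129S2 and B6 arrays from left to right and black marks for the mean and SD of 3 arrays. B6 brains are lowest on all 7 probe sets. In liver the D2 mean is lowest on all 3 Hbb-bh1 probe sets, though D2 and B6 arrays overlap on 1450736_a_at. The D2 liver mean is highest on Hbb-y and Hba-x.

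In E14.5 liver the genes parted ways. D2 had more Hba-x than B6 but less Hbb-bh1, on 2 of its 3 probe sets. Hbb-bh1 1437810_a_at measured 11.19, 11.07 and 11.46 in D2 livers and 11.98, 12.00 and 11.93 in 129S2 livers, against 12.05, 11.99 and 11.77 in B6 livers. On 1437990_x_at the values were 11.53, 11.39 and 11.72 in D2 and 12.31, 12.19 and 12.13 in 129S2, against 12.22, 12.38 and 12.01 in B6. D2 was below both other strains on both probe sets, and 129S2 and B6 overlapped. D2 minus B6 was -0.70 ± 0.11 and -0.65 ± 0.11 (limma adjusted p = 0.006 and 0.0099), and 129S2 minus D2 was 0.73 and 0.66 (limma adjusted p = 0.0072 and 0.015). The third probe set, 1450736_a_at, had 11.85, 11.48 and 11.85 in D2 and 12.28, 12.15 and 12.16 in 129S2, against 12.16, 12.16 and 11.65 in B6. Its D2 minus B6 difference of -0.27 ± 0.15 did not pass (limma adjusted p = 0.4), and the arrays overlapped. Of these Hbb-bh1 calls, those on 1437810_a_at stood in all 9 fits with 1 array left out, while that on 1437990_x_at against B6 fell under 1.5-fold without B6 replicate 2 (-0.57) or D2 replicate 2 (-0.58). The call on 1437990_x_at between 129S2 and D2 was lost without 129S2 replicate 1 or 2 or D2 replicate 2 (adjusted p of up to 0.059).

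Hba-x measured 13.17, 12.39 and 12.21 in D2 livers and 11.63, 12.21 and 12.22 in 129S2 livers, against 10.66, 11.15 and 11.74 in B6 livers. All D2 arrays were above all B6 arrays, while the 129S2 arrays overlapped both. The D2 excess over B6 was 1.40 ± 0.32, or 2.65-fold (limma adjusted p = 0.033), and it was lost without replicate 1 or 2 of D2, 1 or 2 of B6, or 2 or 3 of 129S2, with an adjusted p of up to 0.12. The difference of 0.84 between 129S2 and B6 did not pass (limma adjusted p = 0.21). Hbb-y was higher in D2 than in B6 without overlap on all 3 probe sets, but by only 0.23, 0.26 and 0.56. The difference of 0.56 ± 0.09 on 1450621_a_at had an adjusted p of 0.0083 in limma and stayed under 1.5-fold. In sum 1 member was called higher and 2 lower in D2 than in B6, where 2.91% of all probe sets were called, 0 of 7 differed between 129S2 and B6 (2.19% of all), and 2 were higher in 129S2 than in D2 (1.71% of all). At an unadjusted p below 0.05, 1 member passed for 129S2 against B6.

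**Figure D4:**
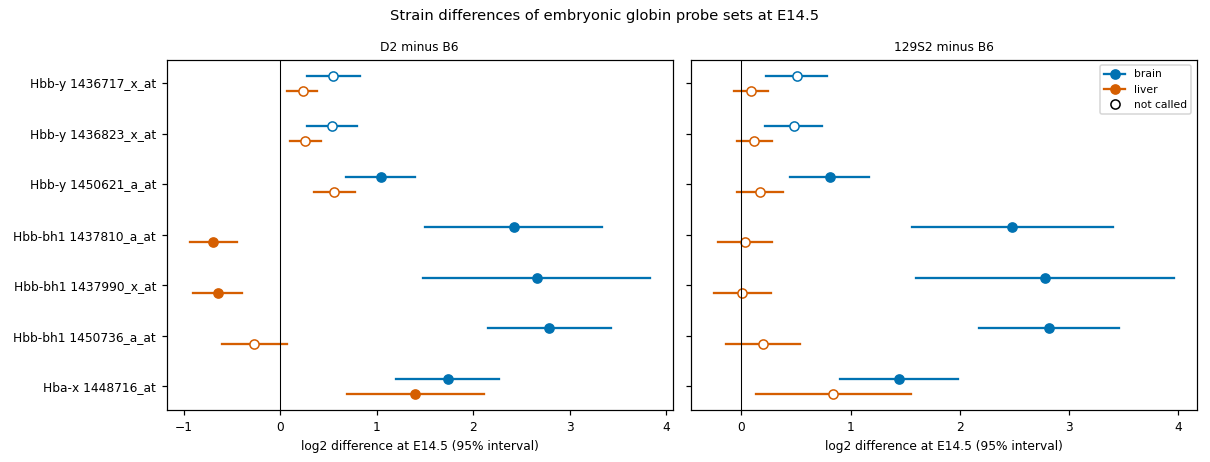
Log2 strain difference at E14.5 (x axis) with its 95% interval for each of the 7 probe sets, D2 minus B6 and 129S2 minus B6, in brain and in liver, with open points where the difference was not called. The brain points of Hbb-bh1 lie between 2.42 and 2.82, while its liver points lie between -0.70 and 0.20.

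The strain difference of Hbb-bh1 was larger in brain than in liver by a direct test. For D2 minus B6, the brain difference exceeded the liver difference by 3.12 ± 0.45, 3.31 ± 0.57 and 3.06 ± 0.34 on the 3 probe sets (limma interaction, adjusted p = 8.9e-04, 0.0042 and 7.6e-05). For 129S2 minus B6 it did so by 2.45 ± 0.45, 2.77 ± 0.57 and 2.62 ± 0.34 (adjusted p = 0.01, 0.023 and 5.5e-04). Thus 3 of 7 members were called in the first contrast (2.01% of all), 3 of 7 in the second (1.14% of all), and 0 of 7 for 129S2 minus D2 (0.777% of all, with 0 members at an unadjusted p below 0.05). The 6 calls rest on differences within sets, whose scales may differ. Each fit also took a single spread for all 18 arrays, although spreads were unequal. On 1437990_x_at the SD was 1.25 in B6 brain, against 0.17, 0.09 and 0.18 in D2, 129S2 and B6 liver. The calls may therefore look steadier than the brain differences they rest on. The Hba-x interaction was 0.33 ± 0.43 for D2 minus B6, with a 95% interval from -0.58 to 1.24 (limma adjusted p = 0.82). Hbb-y gave 0.28 to 0.49 for D2 minus B6 and 0.36 to 0.63 for 129S2 minus B6, none called. Of the 18 fits that left out 1 array, 18 kept each call except that of 1437990_x_at for 129S2 minus B6, which 13 kept. It was lost without replicate 3 of 129S2 brain, 2 or 3 of 129S2 liver, or 1 or 2 of B6 liver.

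Set directly against liver, brain was at least 2-fold lower in all strains at E14.5 for the 3 Hbb-bh1 probe sets, 3 of 7 members where 10.8% of all probe sets were so. These sizes are after quantile normalization of all 72 arrays. Brain minus liver averaged -3.43 on 1437810_a_at, with -2.17 in D2, -2.84 in 129S2 and -5.29 in B6. On 1450736_a_at it averaged -3.05, with -1.85 in D2, -2.31 in 129S2 and -4.99 in B6. Hba-x was also lower in brain in each strain, but without all strains reaching 2-fold, at -0.39 in D2, -0.22 in 129S2 and -1.06 in B6. Hbb-y gave -0.07, -0.06 and -0.11, sizes that may be compressed near the top of the scale and do not show equal levels. Of the list of red cell genes, 20 of the 21 red cell genes were at least 2-fold lower in brain in each strain, with a median of -4.75, such as Hemgn (-7.30), Rhag (-7.23) and Ermap (-6.38). At P1 the members at least 2-fold lower in brain in each strain were the 3 Hbb-y probe sets, at -3.07, -2.90 and -1.39 (12.3% of all), and the Hbb-bh1 probe sets were also lower in each strain, at -1.03, -1.23 and -0.88, without all strains reaching 2-fold. At P7 it was Hbb-bh1 1437990_x_at at -1.44 (1 of 7, 13.4% of all), and at P90 1437810_a_at at -1.09 and 1437990_x_at at -1.23 (2 of 7, 15.2% of all), but with the values as deposited the P7 and P90 counts were 0.

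Ordered over the 24 groups on the same scale, the 6 E14.5 groups came first for Hbb-y and Hba-x. Hbb-y 1436717_x_at averaged 14.37 in D2 liver, 14.36 in D2 brain, 14.30 in 129S2 brain, 14.20 in 129S2 liver, 14.04 in B6 liver and 13.73 in B6 brain. Neighbours among these groups did not differ beyond the sum of their SDs, and a gap of 6.10 followed, with the P1 livers next at 7.63 in D2, 7.08 in 129S2 and 5.81 in B6. Hba-x averaged 12.32 in D2 liver, 11.92 in D2 brain, 11.78 in 129S2 liver, 11.56 in 129S2 brain, 10.96 in B6 liver and 9.90 in B6 brain, and a gap of 3.11 followed. For Hbb-y and Hba-x the order went by strain within each tissue, and B6 brain was last of the 6. Hbb-bh1 1450736_a_at instead went by tissue, with 11.97, 11.73 and 11.47 in the livers of 129S2, B6 and D2, then 9.66 and 9.62 in the brains of 129S2 and D2, and 6.74 in B6 brain. The D2 brains stood 2.88 above the B6 brains in this order, beyond the sum of their SDs, and the B6 brains did not stand beyond it from the P1 livers. On Hbb-bh1 1437810_a_at the E14.5 B6 brains, at 6.39, were at rank 10, below the P90 livers of 129S2, D2 and B6 at 7.13, 7.03 and 6.96, although neighbours there did not differ beyond their SDs.

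Markers of other cells were read beside the E14.5 strain differences. The neuron list fitted the brain label, with summed signals of 36800 to 63200 in E14.5 brains against 620 to 779 in E14.5 livers. Among the 9 E14.5 brain arrays 3 stood apart, 2 of them in liver markers. B6 replicate 2 had a median log2 signal of 10.72 for 7 hepatocyte markers and 9.68 for the 21 red cell genes, and D2 replicate 1 had 9.72 and 8.47. The other 7 arrays had 7.30 to 8.09 for hepatocyte markers and 7.76 to 8.05 for red cell genes. B6 replicate 2, which was highest in red cell genes, had 7.77 on Hbb-bh1 1450736_a_at and 10.64 on Hba-x, below every D2 and 129S2 array, though it was the highest B6 array on all 3 Hbb-bh1 probe sets. The third array was B6 replicate 3, with the highest neuron sum (63200, where the others had 36800 to 44400). It had the lowest level of each embryonic globin probe set. Its hepatocyte sum was also the lowest (6250, where the others had 13900 to 37600). Its medians of 7.43 for hepatocyte markers and 8.03 for red cell genes, however, lay among those of the other arrays. Without B6 replicate 3, 9 strain differences were called in place of 10, with Hbb-bh1 at 1.90, 1.95 and 2.47 and Hba-x at 1.43 for D2 minus B6. Without B6 replicate 2 and D2 replicate 1, 5 were called, all of Hbb-bh1. The difference of 1450736_a_at was then 2.89 for D2 minus B6 (limma adjusted p = 0.014), while Hba-x had 1.77 and 1.53 (adjusted p = 0.067 and 0.079) and Hbb-y 1450621_a_at had 1.10 for D2 minus B6 (adjusted p = 0.099).

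Whether red cell genes stood higher or lower in D2 than in B6 brains at E14.5 turned on B6 replicate 2. Of the 21 measured, 1 was called higher in D2 than in B6, with a list median of -0.20 beside 0.02 for all probe sets, and 0 were called for 129S2 minus B6, with a median of -0.40. Without B6 replicate 2 the medians were 0.21 for D2 minus B6, with 13 of 21 genes above 0, and -0.12 for 129S2 minus B6, with 6 of 21 above 0, and 1 gene was called higher in each. The summed signals were 11900 to 13400 in D2 and 9710 to 10100 in 129S2, against 10300, 19700 and 10100 in B6, so every D2 array was above B6 replicates 1 and 3. The 1 called was Alad, which encodes an enzyme of haem synthesis, at 1.47 ± 0.20 (limma adjusted p = 0.0065), and the furthest of the others were Slc25a37, a mitochondrial iron importer, at -0.78 and Cpox, another haem enzyme, at -0.64. For 129S2 minus B6 the furthest were Hemgn at -1.89 ± 1.13, Rhag at -1.49 and Slc25a37 at -1.19, with adjusted p from 0.29 to 0.74. The 8 adult globin probe sets differed by -0.46 to 0.10 for D2 minus B6 and by -0.26 to 0.15 for 129S2 minus B6, with 0 called. Of 21 regulators 0 were called in either contrast, with medians of 0.07 and -0.02. The furthest were Nfe2 at -0.34, Sox6 at 0.33 and Bcl11a at -0.29 for D2 minus B6, all with adjusted p of at least 0.5, and Tal1 at -1.04, Nfe2 at -0.66 and Klf1 at -0.64 for 129S2 minus B6, with adjusted p of at least 0.67. The neuron markers ran opposite to the embryonic globins. All 8 were below 0 in both contrasts, with medians of -0.41 and -0.39 and 0 called, and their summed signals were 36800 to 41400 in D2 and 38000 to 43500 in 129S2, against 44300 to 63200 in B6, without overlap. Without B6 replicate 3 the medians were -0.22 and -0.19. The part of neuron content in the globin differences was not tested. Centring each array on its red cell genes, chosen after seeing the data, left the Hbb-bh1 differences at 2.57, 2.81 and 2.94 for D2 minus B6. Hba-x was then at 1.88, and all of these were called. B6 replicate 2 raised the red cell level of B6, so this centring cannot measure the part of red cells, which was not tested.

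**Figure D5:**
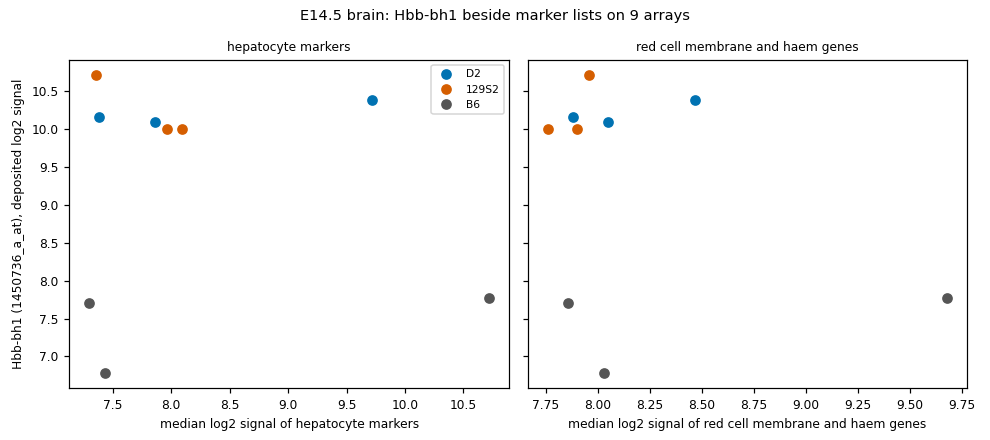
Deposited log2 signal of Hbb-bh1 1450736_a_at (y axis) against the median log2 signal of marker lists (x axes) on the 9 E14.5 brain arrays, with a point for each array of D2, 129S2 and B6. B6 replicate 2 lies far to the right for red cell genes (9.68) and hepatocyte markers (10.72). Its Hbb-bh1 signal of 7.77 is the highest of the B6 arrays and below every D2 and 129S2 array.

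In E14.5 liver the D2 arrays also differed from B6 in other blood cell genes. The 8 neutrophil markers were all called lower in D2 than in B6, with a median of -2.19, such as Camp at -2.62, S100a8 at -2.39 and Ngp at -2.25, the others being Lcn2, S100a9, Elane, Ltf and Mpo. Their summed signals were 5660 to 14400 in D2 and 14500 to 16900 in 129S2, against 29000 to 29800 in B6. All 6 platelet markers were below 0 for D2 minus B6, with a median of -0.66, and 1 was called, Gp1bb, a subunit of a platelet adhesion receptor, at -0.88 ± 0.16 (limma adjusted p = 0.013). Platelet sums were 6160 to 11500 in D2 and 10500 to 12800 in 129S2, against 15800 to 16400 in B6. D2 replicate 1 alone gave the low platelet end (6160) and the high neutrophil end (14400). Replicates 2 and 3 of D2 had platelet sums of 11500 and 11200 and neutrophil sums of 5830 and 5660. Red cell genes had a median of -0.31 for D2 minus B6, with Alad higher (0.75) and Tspo2 (-0.97) and Cpox (-0.79) lower. D2 replicate 1, which had the highest Hba-x, had the lowest red cell sum, 124000, where the other arrays had 154000 to 176000. Without it the Hba-x difference was 1.11 (limma adjusted p = 0.078). Centring on red cell genes moved the D2 minus B6 difference of Hbb-bh1 to -0.40 and -0.36, no longer called, and left Hba-x at 1.70, called. The part of these cells in the strain differences was not tested. Of the regulators, 0 were called, the furthest being Sox6 at -0.53 ± 0.11 (adjusted p = 0.025, under 1.5-fold), Klf3 at -0.47 and Nfe2 at -0.33 for D2 minus B6.

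In P1 liver the Hbb-y signal was called higher in D2 than in B6 on 1 of its 3 probe sets. Hbb-y 1436823_x_at measured 7.63, 6.51 and 7.51 in D2 and 6.33, 7.03 and 7.01 in 129S2, against 6.45, 4.83 and 4.89 in B6. Hbb-y 1436717_x_at measured 7.88, 6.96 and 7.80 in D2 and 6.41, 7.43 and 7.24 in 129S2, against 7.00, 5.34 and 5.24 in B6. In both, B6 replicate 1 stood well above the other B6 arrays and reached into the range of 129S2. The D2 minus B6 difference was 1.83 ± 0.46 on 1436823_x_at (3.55-fold, limma adjusted p = 0.045) and 1.69 ± 0.48 on 1436717_x_at (adjusted p = 0.068). Without B6 replicate 1 the difference on 1436717_x_at was 2.26 (adjusted p = 0.014), while the call on 1436823_x_at was lost in 7 of 9 fits with 1 array left out, all but those without B6 replicate 1 or D2 replicate 2. On 1450621_a_at the signals were 6.45, 6.13 and 6.35 in D2 and 6.57, 6.79 and 6.64 in 129S2, against 6.48, 5.62 and 6.45 in B6, and D2 and B6 overlapped. After quantile normalization of all 72 arrays it averaged 6.14 to 6.68 in P1 livers and 5.96 to 6.04 in P90 livers. The 8 adult globin probe sets in P1 liver ran from -0.02 to 1.22 for D2 minus B6 and from -0.14 to 1.91 for 129S2 minus B6, with 0 called. The list of adult and other globins (3 probe sets) had higher summed signals in D2 and 129S2 than in B6. They were 1260 to 2500 in D2 and 1830 to 4220 in 129S2, against 481 to 1110 in B6. The part of other globin RNA in the Hbb-y signals was not tested.

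Hence 1 of 7 members was called for D2 minus B6 in P1 liver (4.60% of all). For 129S2 minus B6 the count was 0 (1.42% of all), with 6 members at an unadjusted p below 0.05 and a lowest adjusted p of 0.14 in limma. For 129S2 minus D2 it was 0 (3.97% of all), with 2 members at an unadjusted p below 0.05. With the 36 liver arrays in 1 fit, 7 of the 21 member tests were called, and with array weights 4. Red cell genes in P1 liver had medians of 0.24 for D2 minus B6 and 0.73 for 129S2 minus B6, with summed signals of 40500 to 62100 in D2 and 59200 to 75600 in 129S2, against 30700 to 52000 in B6. These medians had the sign of the Hbb-y differences on 1436717_x_at and 1436823_x_at, and the part of red cells in those was not tested. Called for D2 minus B6 were Alad, higher at 1.31, and Epb42, lower at -0.93, and for 129S2 minus B6 Alad, higher at 1.36. Of the regulators Lyl1 was called higher in D2 than in B6, at 0.66.

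In the remaining sets no member was called in any strain contrast. In P1 brain the shares of all probe sets called were 1.23% for D2 minus B6, 1.23% for 129S2 minus B6 and 1.24% for 129S2 minus D2, and the largest member difference was 0.19. In P7 brain they were 1.5%, 1.49% and 1.33% in the same order, with members within 0.17. In P7 liver they were 2.28%, 2.55% and 3.07%, with members within 0.25, and in P90 liver 3.23%, 4.85% and 3.97%, with members within 0.18. In P90 brain they were 2.48%, 2.00% and 1.75%, and Hba-x was 0.29 higher in D2 than in B6 (limma adjusted p = 0.024), which is under 1.5-fold. At an unadjusted p below 0.05 there were 0 members in P1 brain, P7 brain, P7 liver and P90 liver, and in P90 brain 1 for D2 minus B6 and 1 for 129S2 minus D2.

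The change of the strain difference between P1 and E14.5 was tested as an interaction. Each fit took a single spread for both stages, although spreads were unequal. On Hbb-bh1 1437810_a_at the SD in B6 brain was 0.96 at E14.5 and 0.04 at P1. Since member differences in P1 brain were at most 0.19, with signals that may lie at the floor of their probe sets, the brain values largely restate the E14.5 differences and do not test a loss on their own. In brain the D2 minus B6 difference changed by -2.77 ± 0.32 for Hbb-bh1 1450736_a_at (limma interaction, adjusted p = 0.0039), by -2.33 ± 0.44 for 1437810_a_at (adjusted p = 0.044), by -1.77 ± 0.27 for Hba-x (adjusted p = 0.014) and by -1.02 ± 0.19 for Hbb-y 1450621_a_at (adjusted p = 0.038). That is 4 of 7 members, where 0.249% of all probe sets were called. For 129S2 minus B6 it was 1 of 7, again Hbb-bh1 1450736_a_at at -2.64 ± 0.32 (adjusted p = 0.0081, 0.0266% of all), with 7 members at an unadjusted p below 0.05. For 129S2 minus D2 it was 0 (0.0511% of all, 0 members at an unadjusted p below 0.05). The calls of 1450736_a_at stood in 18 of 18 fits with 1 array left out and that of Hba-x in 17, being lost without D2 replicate 3 of P1 (adjusted p = 0.051). The call of 1437810_a_at stood in 3 fits, those without replicate 2 or 3 of E14.5 B6 or replicate 3 of E14.5 129S2, and that of 1450621_a_at in 7.

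In liver the D2 minus B6 difference of Hba-x changed by -1.70 ± 0.41 between P1 and E14.5 (adjusted p = 0.018), which stood in 18 of 18 such fits. It was 1 of 7 members, beside 6.61% of all probe sets, so the share was near the background. For 129S2 minus B6 0 of 7 were called (0.739% of all, 2 members at an unadjusted p below 0.05), and 0 of 7 for 129S2 minus D2 (3.32% of all, 1 member). Hbb-y ran the other way in liver, with 1.46 ± 0.52 and 1.57 ± 0.50 on 1436717_x_at and 1436823_x_at for D2 minus B6 (adjusted p = 0.099 and 0.062), not called.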

How the data were processed

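Affymetrix arrays of whole brain and liver RNA were grouped by strain, tissue and stage from the labels. The deposited values are log2 signals that the authors made with RMA, per the submitters' processing notes, and its version is not given in the sources used here. Within a tissue and stage 1.55 to 4.35% of the values of 2 arrays were equal, and 0 otherwise, so 8 sets of 9 arrays had been normalized apart. No 2 arrays correlated above 0.998, and none was taken as a repeat. Every per-sample column was mapped (0 unused). Strains were tested within sets, and their interactions between sets, with limma 3.58.1 in R 4.3.3 on 45037 probe sets without a filter on low values, with Benjamini-Hochberg adjustment. Between stages and tissues only sizes are given, with no test. The code was tested on simulated data. Python 3.11.15 and pandas 2.3.3 made the counts. The number of arrays limits the precision.

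Probe sets carried 1 gene symbol (34945), several (932) or none (9160) in the platform annotation. Named genes were all member probe sets, the list genes called and the 3 furthest in each list comparison described, and the 6 genes most like each member. Members and lists were chosen with earlier results of these data known. Replicate numbers were taken to pair strains where each same-number correlation of deviations exceeded 0.1, in all strain pairs of E14.5 liver (0.21 to 0.70) and P7 brain (0.11 to 0.79), and in the 129S2 and B6 pair of P1 brain (0.32 to 0.64) and P7 liver (0.30 to 0.40). Brain and liver of the same strain and number paired in 4 of the strain and stage combinations. Alternatives changed scaling, filter, weights, blocks and arrays. Promoter sequences and gene positions are RefSeq's for GRCm38.p6.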

Additional observations from a re-analysis of the deposited data

Results flagged for a closer look

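Each value here is a strain difference that itself differed between tissues or between stages by a limma interaction test, past an adjusted p below 0.05 and 1.5-fold. At E14.5 the D2 minus B6 difference of Hbb-bh1 was larger in brain than in liver by 3.12 on 1437810_a_at, 3.31 on 1437990_x_at and 3.06 on 1450736_a_at. For 129S2 minus B6 the brain difference exceeded that in liver by 2.45, 2.77 and 2.62 on the same probe sets. Each interaction fit took a single spread for all its arrays, though spreads differed between sets.

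Between P1 and E14.5 in brain the D2 minus B6 difference changed by -1.02 for Hbb-y 1450621_a_at, by -2.33 for Hbb-bh1 1437810_a_at, by -2.77 for Hbb-bh1 1450736_a_at and by -1.77 for Hba-x. The 129S2 minus B6 difference of 1450736_a_at changed by -2.64. In liver the D2 minus B6 difference of Hba-x changed by -1.70. Member differences in P1 brain were at most 0.19, so the brain changes largely restate the E14.5 differences.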

How the results depend on the processing

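Strain calls numbered 10 of 21 in E14.5 brain, and they were 3 to 9 without 1 array (3 without D2 replicate 3, 4 without D2 replicate 2, 6 without D2 replicate 1, 5 without any 129S2 array), 3 with the replicate block, 5 of 9 with 1 probe set for each gene, which makes fewer tests, and 5 without the 2 arrays high in liver markers. In E14.5 liver there were 5, with 3 to 6 without 1 array (3 without replicate 2 of any strain), 3 of 9 with 1 probe set for each gene and 2 with red cell centring. In P1 liver there was 1, with 0 to 3 without 1 array (3 without replicate 1 of 129S2 or B6, 1 without D2 replicate 2, otherwise 0), 7 in 1 fit of 36 arrays, 2 with median centring, 4 with array weights, 0 with the replicate block and 0 with 1 probe set for each gene. P90 brain had 0, or 1 with no fold minimum, and P1 brain, P7 brain, P7 liver and P90 liver had 0 in each alternative run and 0 to 0 without 1 array. The filter on low values left no member in some sets. Leaving out liver-marker arrays, red cell centring and the marker medians without single B6 arrays were chosen after seeing the data.

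The tissue interaction had 6 calls (5 to 6 without 1 array), the stage interaction 5 in brain (2 to 9, with 9 and 8 without replicates 3 and 2 of E14.5 B6 and 2 without replicate 3 of P1 D2, and 3 with the replicate block) and 1 in liver (1 to 5, with 5 without replicate 1 of P1 B6). In E14.5 brain the replicate block, where numbers do not pair the arrays, kept 1450736_a_at called in both contrasts (adjusted p = 0.013 and 0.015) and Hba-x for D2 minus B6 (0.03). Where numbers paired strains, the block changed no member call.

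Counts of members 2-fold lower in each strain were 7 of 7 for P1 minus E14.5 in both tissues in each alternative (7 to 7 without 1 array). For P90 minus P7 the counts of 1 in brain and 0 in liver became 2 and 3 as deposited and 7 and 7 with spike-in centring, without 1 array staying at 1 and 0. For P90 minus E14.5 they were 6 to 7 in brain and 7 in liver without 1 array, and for P7 minus P1 0 in brain and 1 to 2 in liver. Brain minus liver counts were 3 at E14.5 (3 to 3), 3 at P1 (3 to 4), 1 at P7 (1 to 1) and 2 at P90 (1 to 2), and as deposited 0 at P7 and 0 at P90. Signs turned with spike-in centring for P90 minus P7 in brain (1450621_a_at -1.72, 1437810_a_at -1.51, 1437990_x_at -1.74) and liver (1450621_a_at -2.58, 1437810_a_at -2.16), where the median of all probe sets itself shifted, and as deposited for P90 brain minus liver of 1437810_a_at (0.10). The cause was not tested otherwise. Signals near the floor limit sizes after birth, and those near the top limit Hbb-y at E14.5.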

Other observations

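The genes whose pattern over the 24 group means was most like a member were listed by Pearson correlation over quantile normalized signals, as a description. For Hbb-y 1450621_a_at they were Igf2bp1 (0.963), Hmga2 (0.961), Hba-x (0.957), Fndc3c1 (0.950), Cwc22 (0.942) and Dpf2 (0.940). Igf2bp1 encodes a fetal RNA-binding protein and Hmga2 a chromatin protein of fetal growth. For Hba-x they were Igf2bp1 (0.965), Skp2 (0.959), Hbb-y (0.957), Fndc3c1 (0.956), Pabpc4l (0.948) and 2610318N02Rik (0.946). For Hbb-bh1 1437810_a_at they were Kifc5b (0.953), Mettl4 (0.951), Urb2 (0.948), Hspa14 (0.947), Pias4 (0.946) and Snord89 (0.943), and neither other embryonic globin was among them. This depends on the probe set, since Hba-x correlated at 0.820 with 1437810_a_at but at 0.910 with 1437990_x_at and 0.945 with 1450736_a_at. Within the members, Hba-x correlated at 0.956 to 0.960 with Hbb-y and at 0.820 to 0.945 with Hbb-bh1.

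In E14.5 liver an adult beta-type probe set also differed by strain. Hbb-b2 1427866_x_at was 1.06 higher in D2 and 1.06 higher in 129S2 than in B6 (limma adjusted p = 0.0013 and 0.0017). The labels do not give the adult beta-globin alleles of the strains.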
